A study of Mus musculus with 24 samples.

Results

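The cadherins and protocadherins were followed here across 24 RNA libraries of NIH 3T3 cells, a mouse embryonic fibroblast line. Members were the genes of the count tables whose mouse symbol was Cdh with a number, Pcdh with any ending, Celsr, Fat1 to Fat4, Dchs1 or Dchs2, and whose mean over all libraries reached 5 reads. Of 67 rows with such a symbol, 46 passed and are the members, among 14361 genes that passed the same limit and 39017 rows in all. The cells carried a retroviral vector with a neomycin resistance gene and a double Flag tag, and formed 8 groups of 3 separately transduced, pooled and drug-selected lines. These were the empty vector (EV), TAZ4SA and YAP5SA (full-length TAZ and YAP in which serines phosphorylated by the LATS kinases were replaced by alanine, which frees them from restraint by those kinases), the sarcoma fusion proteins TAZ-CAMTA1 and YAP-TFE3, and full-length TFE3, all collected 48 h after reaching confluence. Full-length CAMTA1 was collected below confluence and had its own empty-vector control below confluence (EVsub). No group was untransduced, and every line except those with the empty vector overexpressed its construct from the retroviral promoter. The libraries held 16471181 to 30132586 reads in genes, so that 3 reads, the floor used here, corresponded to 0.0928 to 0.225 CPM, the reads of a gene per 1e6 reads of its scaled library.

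Cadherins are calcium-dependent adhesion proteins of the cell surface. Classical cadherins bind the same cadherin on a neighbouring cell and hold catenins, which tie them to actin, on the inner side. Clustered protocadherins lie in neighbouring gene arrays and give each neuron a surface identity, and the giant cadherins Fat and Dchs and the seven-pass Celsr proteins align cells in the plane of a tissue. Fat and Dchs lie upstream of the Hippo pathway in flies, the pathway that restrains YAP and TAZ.

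All 8 of the fibroblast genes listed (Col1a1, Col1a2, Col3a1, Vim, Pdgfrb, Thy1, Fn1 and S100a4) passed the limit and had reads in every library. They summed to 20192 to 52897 CPM over the 24 libraries, but single genes moved apart under the full-length activated proteins. Against EV, log2 fold changes in TAZ4SA and YAP5SA were -1.47 and -1.999 for Pdgfrb, -1.998 and -1.67 for S100a4, and -1.43 and -1.11 for Fn1. Thy1 rose by 1.66 and 2.36. All of these had an adjusted p under 0.05 in the edgeR test described below. Vim reached that level in YAP5SA (1.19) but not in TAZ4SA, and Col1a1, Col1a2 and Col3a1 in neither. The 10 epithelial genes summed to at most 0.849 CPM outside TAZ4SA (1.44 to 2.02) and YAP5SA (7.90 to 9.57), where Krt14 averaged 1.14 and 8.41 CPM, and Epcam and Cldn3 had no read in any library. The 5 endothelial genes summed to 8.44 to 12.2 CPM in TAZ4SA and 7.85 to 8.49 in YAP5SA, where Kdr averaged 9.63 and 6.42 CPM and Tek 0.208 and 0.602. They summed to 2.34 to 4.56 CPM in EV, where Tek averaged 3.05, and to 0.338 to 4.56 in the other groups. The 5 muscle genes reached 4.31 to 8.62 CPM in TAZ4SA, 2.22 to 4.31 in YAP5SA and at most 2.56 elsewhere, mostly through Des, while Myod1, Myf5 and Actc1 had no read. The 5 myeloid genes summed to 16.4 to 67.5 CPM in TAZ4SA and 83.6 to 132 in YAP5SA but to at most 6.66 elsewhere, with Adgre1 at 0. What part these levels have in the member results was not tested. In pooled lines, fewer cells expressing a gene and less RNA per cell cannot be told apart.

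Most members were called under the full-length activated proteins and fewer under the fusions, which was also so for all genes. A gene was called when the adjusted p of edgeR's quasi-likelihood test, fitted on all 24 libraries and adjusted over all 14361 genes by the Benjamini-Hochberg method, was under 0.05. Against EV, TAZ4SA called 38 of the 46 members (82.6%), 9 higher and 29 lower (57.5% of all genes were called, 31.1% higher and 26.4% lower). YAP5SA called 37 (80.4%), 9 higher and 28 lower (71.2% of all genes, 36.3% higher and 34.9% lower). Lower calls made up 63.0% and 60.9% of the members. The median log2 fold change of the members was -1.13 in TAZ4SA and -1.53 in YAP5SA, against 0.05 and 0.01 over all genes. The clustered protocadherins gave 21 of the lower calls in each group. Outside them, lower calls in TAZ4SA were 1 of 4 type I, 1 of 5 type II, 2 of 3 other and 1 of 6 giant and seven-pass cadherins. In YAP5SA they were 1, 1, 1 and 1. Of 7 non-clustered protocadherins, 3 were lower in each group. TAZ-CAMTA1 called 21 (45.7%), 10 higher and 11 lower (21.5% of all genes, 12.5% higher and 8.98% lower). YAP-TFE3 called 16 (34.8%), 11 higher and 5 lower (15.3% of all genes, 10.6% higher and 4.74% lower). TFE3 called 5, 1 higher and 4 lower (3.38% of all genes, 2.36% higher and 1.02% lower), and CAMTA1 against EVsub called 1, higher (2.18% of all genes, 1.29% higher). All comparisons named so far, apart from that of CAMTA1, share the EV libraries. The count for TAZ-CAMTA1 was 13 without EV replicate 3 or without TAZ-CAMTA1 replicate 2, and that for YAP-TFE3 was 8 without its replicate 1, 9 without EV replicate 3 and 10 without EV replicate 1 or its own replicate 2. For TFE3 it was 2 or 3 without any single library of either group.

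**Figure D1:**
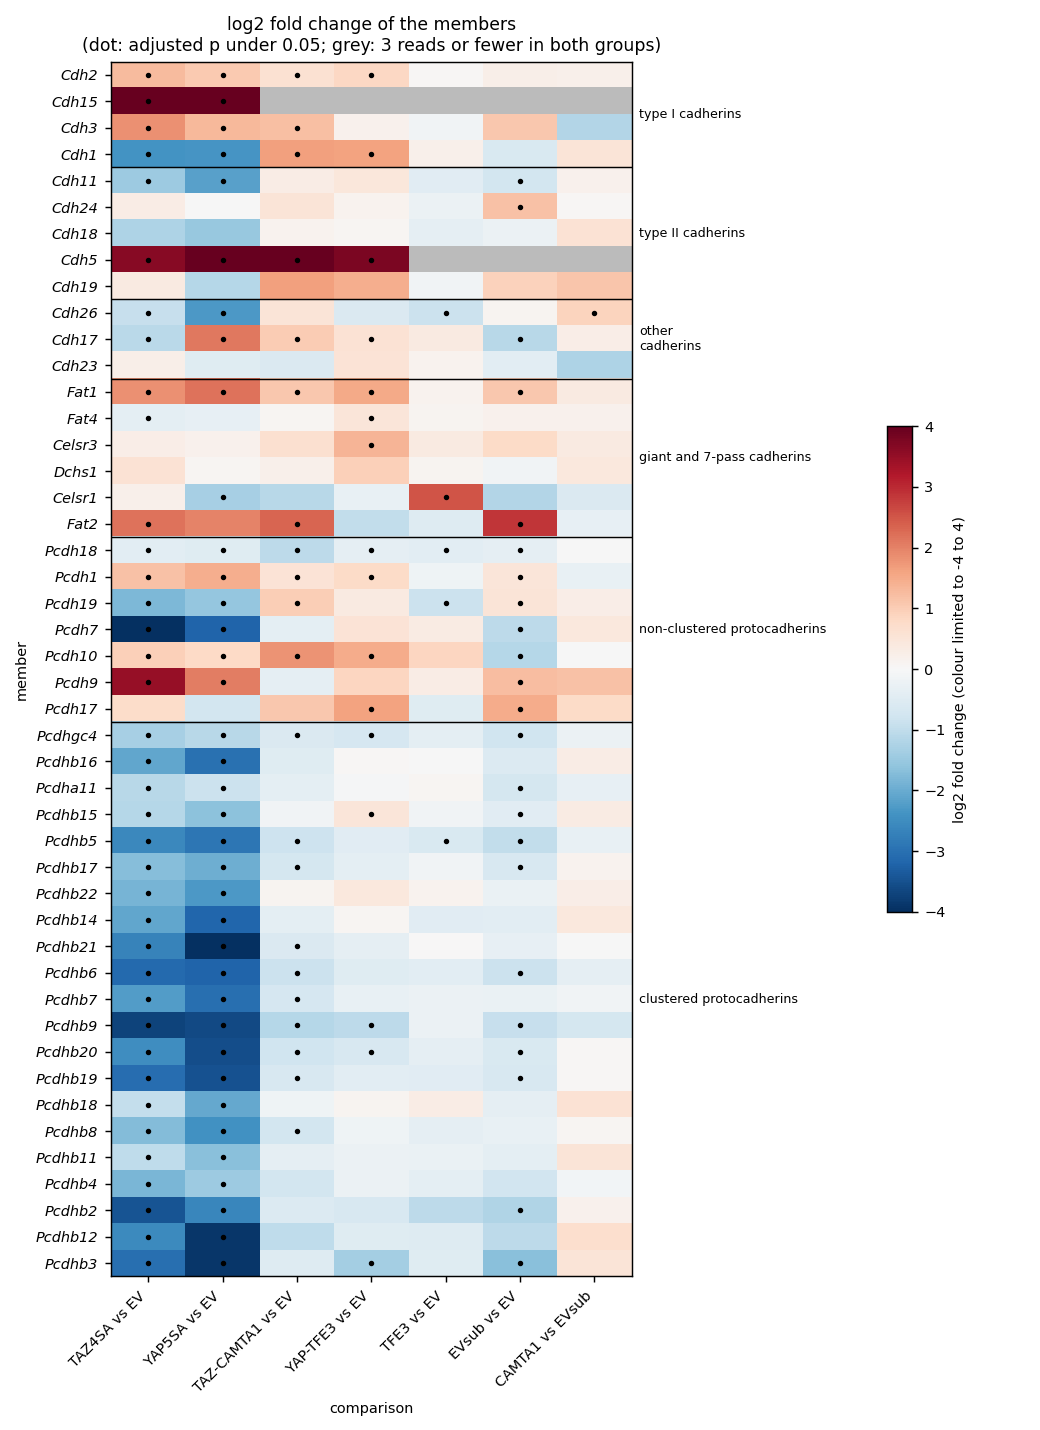
Log2 fold change of the 46 members (rows, by role and by falling mean level) in 7 comparisons (columns), with colour limited to -4 to 4, a dot where the adjusted p was under 0.05, and grey where neither group had more than 3 reads in its 3 libraries. The lower block of 21 clustered protocadherins is blue and dotted throughout in TAZ4SA and YAP5SA and only in part in the fusions.

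The limit was passed only through the highest group by 2 members, Cdh5 through TAZ-CAMTA1 and Fat2 through EVsub, so that their differences were partly set by the limit. Cdh15 averaged 6.71 reads without its highest group, YAP5SA, but had hardly a read outside YAP5SA and TAZ4SA. Its differences were therefore partly set by the limit as well. The 21 genes below the limit reached mean levels of at most 4.75 reads, and 6 of them (Pcdh11x, Cdh7, Pcdh8, Cdh8, Cdh10 and Pcdhb1) had no read in any library. Cdh13, the cadherin that is anchored by a lipid, had reads in 3 libraries and at most 2 in one.

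Of the type I cadherins, Cdh2 (N-cadherin) rose in the 4 TAZ and YAP groups, Cdh1 (E-cadherin) went in opposite directions under full-length and fusion proteins, and Cdh15 (M-cadherin, known from skeletal muscle) was seen with full-length TAZ and YAP and hardly elsewhere. Cdh2 lay at 94.9, 74.3 and 97.6 CPM in EV, at 218, 173 and 253 in TAZ4SA, and at 214, 168 and 175 in YAP5SA. It lay at 133, 139 and 134 CPM in TAZ-CAMTA1 and at 193, 141 and 145 in YAP-TFE3. Every library of these 4 groups was above every EV library. The log2 fold changes were 1.27 ± 0.16 (SE, adjusted p = 5.6e-07), 1.06 ± 0.16 (2.7e-06), 0.61 ± 0.15 (0.0066) and 0.84 ± 0.15 (0.00049), in the same order. TAZ-CAMTA1 was lower than TAZ4SA (-0.67 ± 0.15, adjusted p = 0.00099), whereas YAP-TFE3 and YAP5SA differed by -0.22 ± 0.15 (adjusted p = 0.21) and their libraries overlapped. Cdh3 (P-cadherin), outside the naming rule and added after its values were seen, was low, at 9, 3 and 3 reads in EV against 16, 10 and 19 in TAZ4SA (1.82 ± 0.42, adjusted p = 0.00076). Its YAP5SA call (12, 11 and 8 reads, 1.30 ± 0.44, 0.011) was lost without EV replicate 3 (0.057), and its TAZ-CAMTA1 call (15, 11 and 11 reads, 1.21 ± 0.43, 0.047) was not made by DESeq2 (0.098) and was lost without any of 5 of the 6 libraries (adjusted p of 0.066 to 0.20, EV replicate 1 being the exception).

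Cdh15 had 41, 29 and 69 reads in TAZ4SA and 648, 526 and 272 in YAP5SA. In the other 18 libraries together it had 2 reads, 1 in EV and 1 in TAZ-CAMTA1. Cdh15 thus passed the limit only through TAZ4SA and YAP5SA, so its differences from the other groups were partly set by the limit. Relative to the single EV read the ratio was 166 in TAZ4SA (95% counting interval 29.3 to 6609) and 1747 in YAP5SA (313 to 69052). The YAP5SA level exceeded that of YAP-TFE3, which had no read, by at least 635-fold when the latter was set to 3 reads over the group. YAP5SA was above TAZ4SA, with a log2 fold change of TAZ4SA over YAP5SA of -3.38 ± 0.30 (adjusted p = 1.6e-06). Of the muscle regulators listed, Myog had 25 reads over the 3 libraries of TAZ4SA, 8 in YAP5SA, 1 in TAZ-CAMTA1 and 0 in the other groups, and Myod1 and Myf5 had no read in any library.

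Cdh1 was close to the floor throughout. EV held 6, 5 and 3 reads, TAZ-CAMTA1 15, 16 and 16, and YAP-TFE3 17, 23 and 8. TAZ4SA held 0, 1 and 1 reads and YAP5SA 1, 1 and 0. TAZ-CAMTA1 gave a log2 fold change of 1.64 ± 0.45 (adjusted p = 0.011) and YAP-TFE3 one of 1.62 ± 0.45 (0.015), and the EV level exceeded that of TAZ4SA by a ratio of 5.86 (counting interval 1.35 to 53.1) and that of YAP5SA by 5.79 (1.33 to 52.5). In the direct comparisons TAZ-CAMTA1 exceeded TAZ4SA 18.6 times (4.86 to 158) and YAP-TFE3 exceeded YAP5SA 18.2 times (4.77 to 155), and both were called. Against EV the call was lost without EV replicate 3 for TAZ-CAMTA1 (adjusted p = 0.066) and for YAP-TFE3 (0.088), without YAP-TFE3 replicate 1 (0.087) or 2 (0.065), and without TAZ4SA replicate 1 for TAZ4SA (0.073).

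Cdh11 (OB-cadherin, typical of mesenchymal cells) was the main type II cadherin, fell under both full-length proteins and was called in neither fusion. Cdh5 (VE-cadherin, the endothelial cadherin) was highest in TAZ-CAMTA1, the group through which alone it passed the limit. Cdh11 lay at 259, 364 and 297 CPM in EV. It lay at 135, 96.6 and 103 CPM in TAZ4SA and at 55.8, 75.9 and 73.5 in YAP5SA, all below the lowest EV library, with log2 fold changes of -1.46 ± 0.20 (adjusted p = 2.0e-06) and -2.16 ± 0.20 (3.7e-09). TAZ-CAMTA1 (424, 360 and 340 CPM) and YAP-TFE3 (485, 400 and 380 CPM) differed from EV by 0.29 ± 0.19 and 0.46 ± 0.19, with adjusted p of 0.31 and 0.12. Both fusions were above their full-length protein, by 1.75 ± 0.20 (adjusted p = 3.1e-07) and 2.62 ± 0.20 (3.6e-10). Per kilobase of exon, Cdh11 exceeded Cdh2 in every library of EV (2.47 to 4.44 times), TAZ-CAMTA1 (2.30 to 2.88) and YAP-TFE3 (2.28 to 2.57). It did so too in TFE3 (2.06 to 2.40), EVsub (1.05 to 2.40) and CAMTA1 (1.02 to 2.19), by ratios that all lay below those of EV. In TAZ4SA and YAP5SA the order was turned, with Cdh11 at 0.367 to 0.562 and 0.236 to 0.410 of Cdh2.

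**Figure D2:**
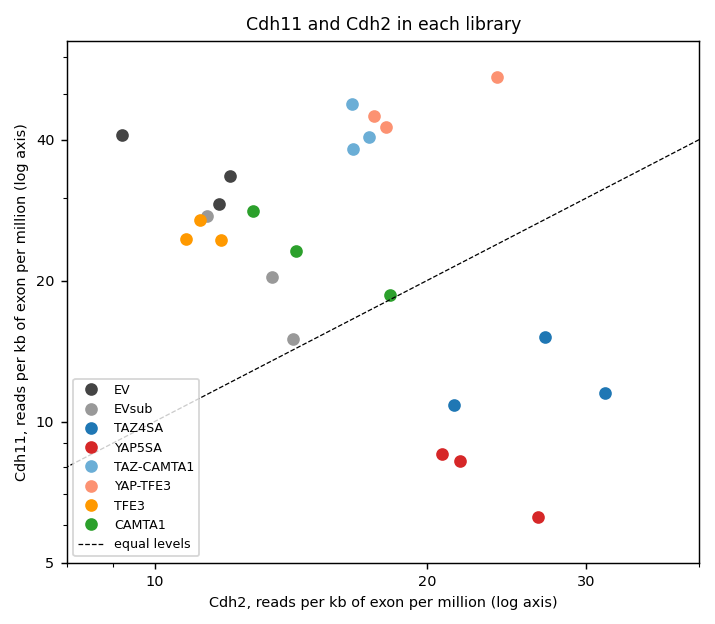
Cdh11 (vertical axis) against Cdh2 (horizontal axis) in each of the 24 libraries, both as RPKM, the CPM divided by the exon length in kb on log axes, with a dashed line at equal levels. The 6 TAZ4SA and YAP5SA libraries lie below the line and the other 18 above it.

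Cdh5 had 33, 44 and 41 reads in TAZ-CAMTA1, against 0, 0 and 1 in EV, a ratio of 111 (counting interval 19.6 to 4435). Without TAZ-CAMTA1 its mean was 2.81 reads, under the limit of 5, so its differences from that group were partly set by the limit. TAZ4SA held 4, 4 and 6 reads, YAP5SA 7, 3 and 10, and YAP-TFE3 6, 9 and 5. The ratios to the single EV read were 16.7 (2.55 to 708), 24.2 (3.86 to 1002) and 18.3 (2.93 to 760), and all 4 groups were called. TAZ-CAMTA1 was above TAZ4SA by 2.71 ± 0.45 on the log2 scale (adjusted p = 5.3e-05) and above YAP-TFE3 by 2.59 ± 0.43 (0.00034). Of the endothelial genes listed, Kdr and Tek passed the limit, and they moved in different directions. Kdr rose by 6.91 in TAZ4SA and 6.33 in YAP5SA and was at 1.78 in TAZ-CAMTA1 (adjusted p = 0.078). Tek was at -3.91 (1.2e-06), -2.32 (4.2e-05) and -0.30 (0.59) in the same groups. Cdh24, the other leading type II cadherin, lay at 2.36, 3.06 and 2.92 CPM in EV and at 6.10, 8.58 and 3.93 in EVsub. It rose in EVsub by 1.16 ± 0.30 (adjusted p = 0.0078), a call lost without EVsub replicate 2 (0.074), and was called against EV in no other group.

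**Figure D3:**
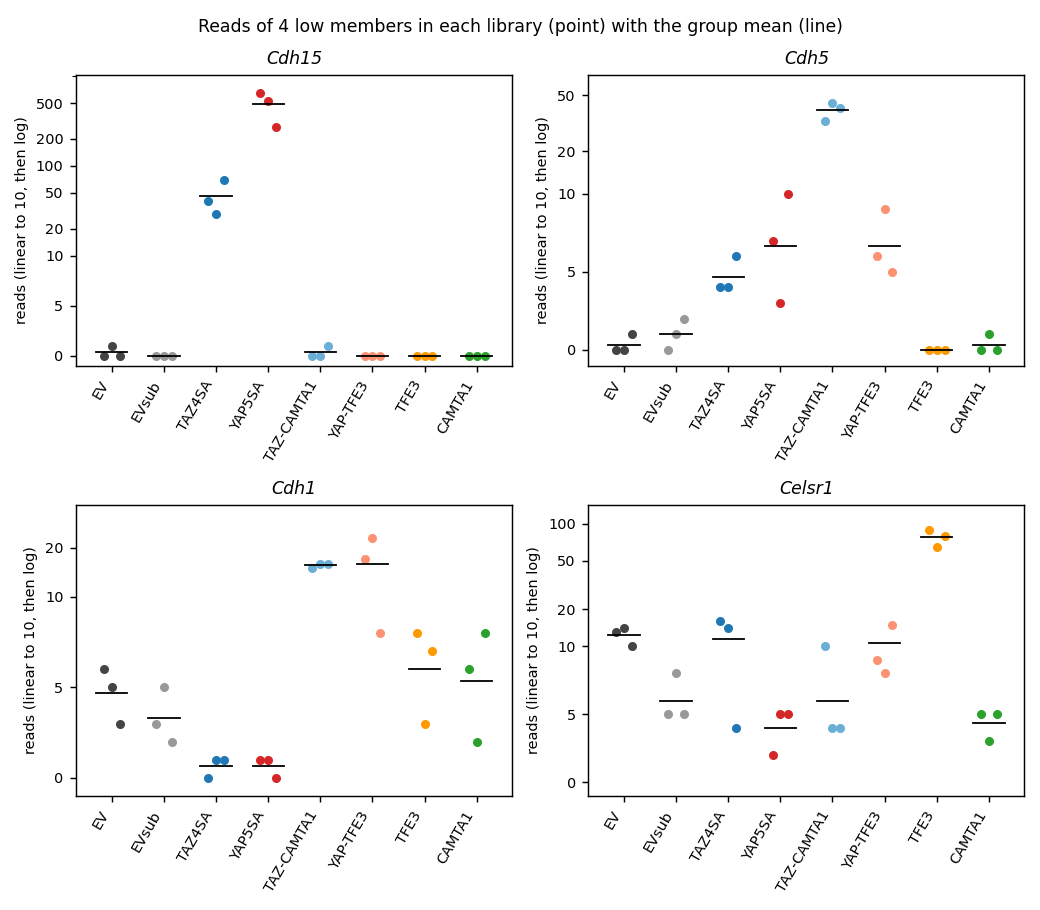
Reads of Cdh15, Cdh5, Cdh1 and Celsr1 in each library (points; vertical axis linear to 10 reads and logarithmic above) with the group mean (line), for the 8 groups. Cdh15 is seen in TAZ4SA and YAP5SA, Cdh5 is highest in TAZ-CAMTA1 (33 to 44 reads), Cdh1 is highest in the fusions, and Celsr1 is highest in TFE3 (65 to 89 reads).

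Among the other cadherins, Cdh17 (LI-cadherin, a cadherin of liver and intestine) moved in opposite directions under the 2 full-length proteins. It lay at 3.88, 3.44 and 4.60 CPM in EV, at 2.48, 1.80 and 1.36 in TAZ4SA and at 20.02, 14.9 and 16.6 in YAP5SA. The log2 fold changes were -1.08 ± 0.22 (adjusted p = 0.00024) and 2.11 ± 0.20 (4.0e-09), and the direct difference between TAZ4SA and YAP5SA was -3.19 ± 0.22 (2.3e-09). In the fusions the order differed, since TAZ-CAMTA1 lay at 8.62, 7.55 and 7.86 CPM (1.01 ± 0.20, adjusted p = 0.00067) and was above TAZ4SA by 2.09 ± 0.21 (9.1e-08), while YAP-TFE3 lay at 7.62, 5.32 and 5.05 CPM and was below YAP5SA by 1.52 on the log2 scale (-1.52 ± 0.19, 3.2e-07). The YAP-TFE3 change against EV (0.59 ± 0.20, adjusted p = 0.047) was lost without any EV library (0.13, 0.15 and 0.0501) or YAP-TFE3 replicate 1 (0.38), and also with DESeq2 size factors (0.053), with no filter on low counts (0.063) and with the 2 groups fitted alone (0.095).

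Cdh26, a cadherin known from epithelia, lay at 7.60, 8.07 and 10.1 CPM in EV and fell to 2.46, 1.28 and 1.52 in YAP5SA (-2.28 ± 0.25, adjusted p = 4.9e-08). In TAZ4SA it lay at 3.82, 2.85 and 6.64 CPM (-0.92 ± 0.23, adjusted p = 0.0015). CAMTA1 called this member alone, at 18.7, 17.6 and 14.8 CPM against 10.4, 8.94 and 8.24 in EVsub (0.89 ± 0.21, adjusted p = 0.027). That call was lost without CAMTA1 replicate 1 (0.13) or 2 (0.10) and without EVsub replicate 2 (0.13) or 3 (0.087). In TFE3 Cdh26 lay at 4.47, 4.73 and 4.92 CPM (-0.87 ± 0.22, adjusted p = 0.032), a call lost without any of 5 of the 6 libraries (adjusted p of 0.062 to 0.17, EV replicate 1 being the exception). Cdh23, the cadherin of hair cell tip links, was lower in TAZ-CAMTA1 (1.25, 1.16 and 1.72 CPM) than in YAP-TFE3 (3.26, 3.45 and 2.34 CPM) by -1.12 ± 0.29 (adjusted p = 0.014), which was lost without TAZ-CAMTA1 replicate 2 (0.081) or YAP-TFE3 replicate 2 (0.060).

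Fat1 was the leading giant cadherin and was higher than in EV under all 4 TAZ and YAP proteins and below confluence, whereas Fat4 and Dchs1, the receptor and ligand pair of mammals, had few calls or none. Fat1 lay at 92.6, 109 and 98.1 CPM in EV. It lay at 383, 295 and 398 CPM in TAZ4SA and at 540, 377 and 442 in YAP5SA, at 173, 218 and 248 in TAZ-CAMTA1, and at 379, 279 and 207 in YAP-TFE3. No library of these groups reached down to EV, and the log2 fold changes were 1.84 ± 0.20 (adjusted p = 1.0e-07), 2.18 ± 0.20 (3.5e-09), 1.09 ± 0.20 (0.00029) and 1.53 ± 0.20 (1.0e-05). EVsub, at 205, 263 and 165 CPM, was above EV by 1.08 ± 0.20 (0.00047). Fat1 was lower in each fusion than in its full-length protein, by -0.75 ± 0.19 (0.0025) for TAZ and -0.65 ± 0.19 (0.0047) for YAP, the libraries overlapping for YAP.

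Fat4 lay at 148, 102 and 130 CPM in EV and at 88.5, 81.5 and 123 in TAZ4SA, and the groups overlapped (-0.38 ± 0.16, adjusted p = 0.048). In YAP-TFE3 it lay at 193, 191 and 153 CPM (0.50 ± 0.16, adjusted p = 0.036). Neither call held when single libraries were left out. The first was lost without EV replicate 1 (0.24) or 3 (0.10) or TAZ4SA replicate 1 (0.16) or 2 (0.20), and the second without EV replicate 2 (0.17) or 3 (0.086) or YAP-TFE3 replicate 1 (0.22) or 2 (0.11). YAP-TFE3 was above YAP5SA by 0.81 ± 0.16 (adjusted p = 1.0e-04). Dchs1 had 8 to 22 reads in EV and 6 to 54 over all libraries. It was called in none of the 11 comparisons by edgeR or DESeq2, and its smallest unadjusted p was 0.052, in YAP-TFE3 (0.95 ± 0.46). Cdh18 was the only other member with no edgeR call, and DESeq2 gave it an adjusted p of at least 0.065.

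Celsr1, a core planar polarity cadherin, rose with TFE3, to 89, 65 and 80 reads from 13, 14 and 10 in EV, at a log2 fold change of 2.51 ± 0.39 (adjusted p = 0.00052). No other comparison with EV called it higher. It fell in YAP5SA (2, 5 and 5 reads, -1.33 ± 0.55, adjusted p = 0.034), a call lost without EV replicate 1 (0.060) or 2 (0.092) or YAP5SA replicate 1 (0.15) or 2 (0.059). Fat2 had 0, 3 and 1 reads in EV and 5, 10 and 8 in TAZ-CAMTA1 (2.34 ± 0.82, adjusted p = 0.044), which DESeq2 did not call (0.056) and which was lost without EV replicate 1 (0.18) or 3 (0.14) or TAZ-CAMTA1 replicate 2 (0.16) or 3 (0.091). In EVsub it had 9, 24 and 2 reads, overlapping EV, and its call there (2.85 ± 0.77, 0.010) was lost without EV replicate 1 (0.059) or EVsub replicate 2 (0.13). Without EVsub its mean was 4.38 reads, under the limit of 5, so its difference in EVsub was partly set by the limit. Fat2 was above its YAP-TFE3 level (1, 1 and 0 reads) in TAZ-CAMTA1 by a ratio of 11.8 (counting interval 2.93 to 104), a call lost without TAZ-CAMTA1 replicate 2 (0.094) or 3 (0.053) or YAP-TFE3 replicate 2 (0.065) or 3 (0.079).

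**Figure D4:**
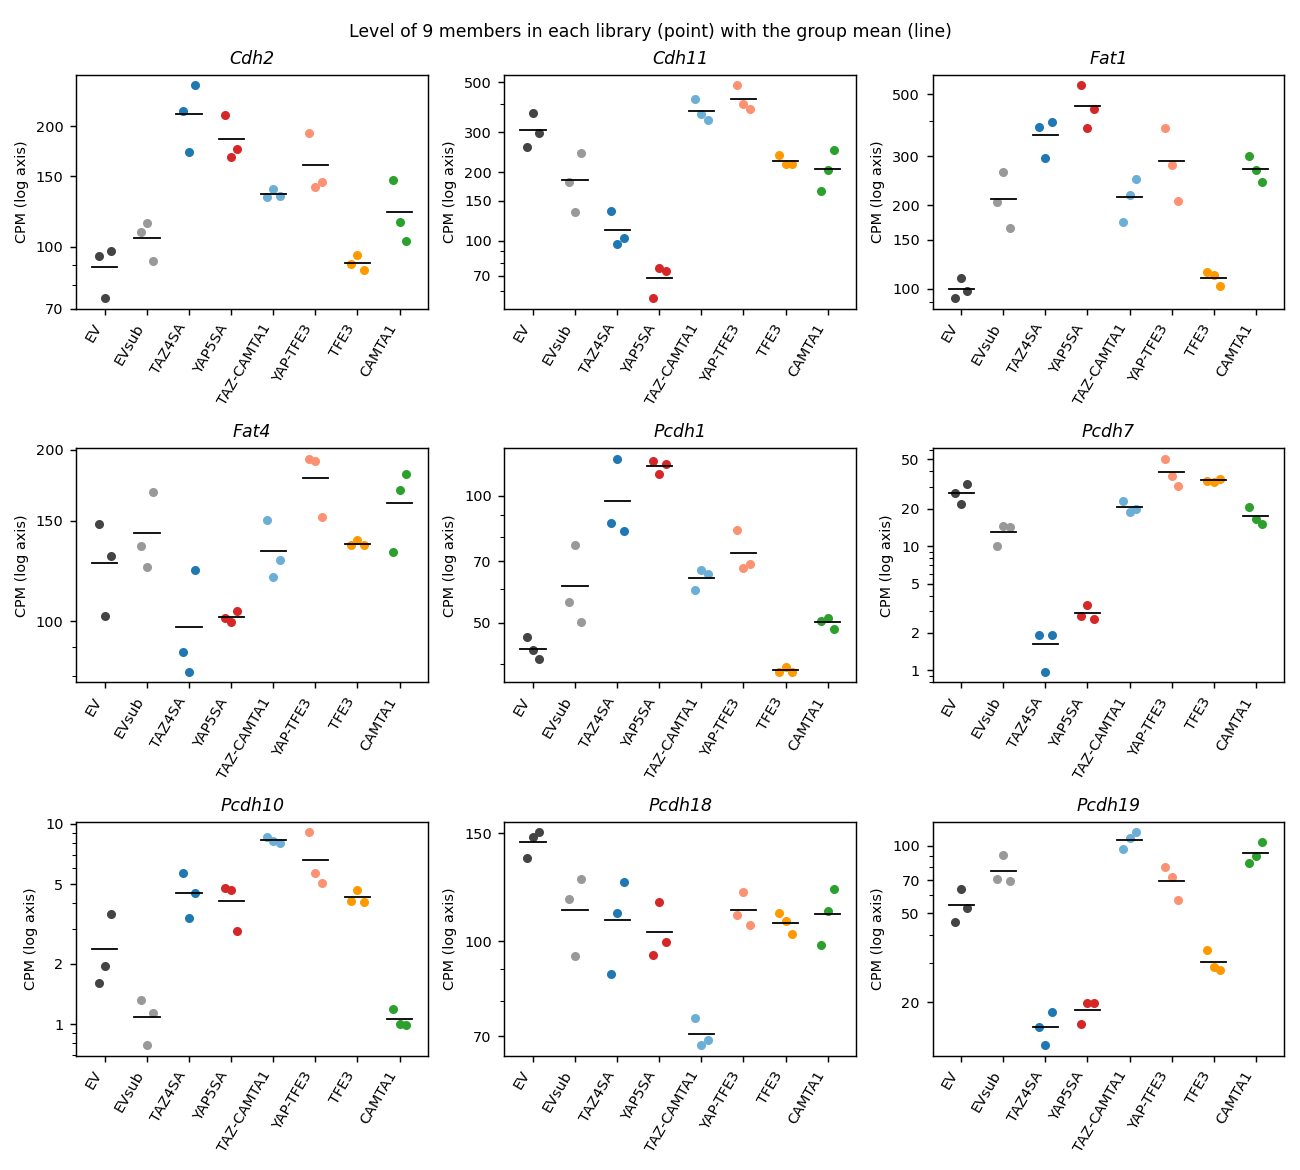
Level in CPM (log axes) of 9 members in each library (points) with the group mean (line), for the 8 groups. Cdh2, Fat1 and Pcdh1 are higher in the 4 TAZ and YAP groups than in EV, while Cdh11, Pcdh7 and Pcdh19 are low in TAZ4SA and YAP5SA alone of these 4.

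The non-clustered protocadherins took different courses. Pcdh1 and Pcdh10 were higher than in EV with all 4 TAZ and YAP proteins, and Pcdh18 was lower with all 4. Pcdh7 and Pcdh19 were lower with the full-length proteins and not with the fusions, Pcdh19 being higher with TAZ-CAMTA1. Pcdh9 was higher with the full-length proteins and called in neither fusion, and Pcdh17 was called against EV in YAP-TFE3 alone of these 4. For genes that moved so differently, the 250 bases before the RefSeq start (GRCm38.p6) are printed. These genes are Pcdh10, Pcdh18 and Pcdh19, members of the delta-2 subfamily, and Fat1, each printed 5′ to 3′ on the strand of the gene. Capitals mark the letters GGAATG, the core of the site that TEAD factors, the DNA-binding partners of YAP and TAZ, are known to bind. Both strands were searched for GGAATG and for CACGTG, the E-box read by TFE3.
Pcdh10 (chr3:45378148-45378397, plus strand): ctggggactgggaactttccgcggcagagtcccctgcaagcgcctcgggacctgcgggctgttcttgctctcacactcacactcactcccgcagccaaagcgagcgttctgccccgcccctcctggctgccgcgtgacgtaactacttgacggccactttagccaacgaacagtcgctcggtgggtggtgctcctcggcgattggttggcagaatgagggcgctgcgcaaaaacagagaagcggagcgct
Pcdh18 (chr3:49757317-49757566, minus strand): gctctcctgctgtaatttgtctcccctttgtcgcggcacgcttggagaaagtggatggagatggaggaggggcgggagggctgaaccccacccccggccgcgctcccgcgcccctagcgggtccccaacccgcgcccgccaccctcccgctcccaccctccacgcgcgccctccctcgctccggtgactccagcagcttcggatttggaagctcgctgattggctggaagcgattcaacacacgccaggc
Pcdh19 (chrX:133688994-133689243, minus strand): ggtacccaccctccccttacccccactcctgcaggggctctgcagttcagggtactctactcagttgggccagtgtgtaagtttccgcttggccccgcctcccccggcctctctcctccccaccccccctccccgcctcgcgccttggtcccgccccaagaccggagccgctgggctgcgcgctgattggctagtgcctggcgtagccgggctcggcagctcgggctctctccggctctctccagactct
Fat1 (chr8:44949958-44950207, plus strand): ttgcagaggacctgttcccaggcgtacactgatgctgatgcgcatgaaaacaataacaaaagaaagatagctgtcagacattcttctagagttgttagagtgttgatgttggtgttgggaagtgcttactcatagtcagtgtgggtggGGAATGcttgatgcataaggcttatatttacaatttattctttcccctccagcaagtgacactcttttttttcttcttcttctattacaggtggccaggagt
GGAATG occurred once in the Fat1 window, starting 102 bases before that start, and in none of the other 3 windows, and CACGTG in none of the 4. Over 32851 such windows of the mouse genome, 12.6% held GGAATG and 6.02% held CACGTG. Windows were searched for 15 members (16 windows), of which 2, those of Fat1 and Fat2, held GGAATG and 1, that of Cdh15, held CACGTG. The Fat1 start used by RefSeq lies 14761 bases after the first Fat1 start of the GENCODE annotation and that of Fat2 24307 bases after its own, both inside the gene. The windows of Fat1 and Fat2 therefore do not lie before the gene in that annotation. Only 12 bases of the Fat1 window and 0 of the Fat2 window lie in annotated exon. The Cdh15 start lies 408 bases after the first one in GENCODE, so that all 250 bases of its window, CACGTG included, lie in annotated exon. The first 3 windows contained 63.2%, 68.0% and 69.2% G and C, and the Fat1 window 42.0%.

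Pcdh7 showed the largest fall of any member in TAZ4SA. It lay at 26.7, 22.1 and 31.6 CPM in EV, at 1.93, 0.974 and 1.93 in TAZ4SA and at 2.72, 3.34 and 2.60 in YAP5SA, with log2 fold changes of -3.998 ± 0.24 (adjusted p = 2.6e-11) and -3.21 ± 0.22 (5.7e-11). TAZ-CAMTA1 (23.3, 18.8 and 19.8 CPM) and YAP-TFE3 (50.7, 36.9 and 30.4 CPM) differed from EV by -0.38 ± 0.19 and 0.55 ± 0.19, with adjusted p of 0.17 and 0.053. Against their full-length proteins they were higher by 3.62 ± 0.24 (2.3e-10) and 3.76 ± 0.23 (1.0e-11).

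Pcdh19 lay at 45.6, 64.1 and 52.9 CPM in EV, at 15.4, 12.8 and 18.1 in TAZ4SA and at 15.97, 19.9 and 19.7 in YAP5SA (-1.80 ± 0.16, adjusted p = 8.1e-09, and -1.55 ± 0.16, 1.9e-08). In TAZ-CAMTA1 it rose to 96.8, 108 and 115 CPM (0.98 ± 0.15, 7.2e-05), so that it was called in opposite directions in TAZ4SA and TAZ-CAMTA1, which differed by 2.78 ± 0.17 (5.6e-11). YAP-TFE3, at 80.2, 72.3 and 57.1 CPM, overlapped EV (0.37 ± 0.15, adjusted p = 0.12). It was lower in TFE3 as well, at 34.1, 28.6 and 27.8 CPM (-0.84 ± 0.16, 0.0029).

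Pcdh18 lay at 137, 148 and 150 CPM in EV and fell furthest in TAZ-CAMTA1, to 75.1, 67.7 and 69.1 (-1.04 ± 0.12, adjusted p = 2.0e-06). Its other falls were smaller, at -0.42 ± 0.12 in TAZ4SA (0.0052), -0.49 ± 0.12 in YAP5SA (0.0012) and -0.37 ± 0.12 in YAP-TFE3 (0.042), the last lost without any single library of the 2 groups (adjusted p of 0.051 to 0.14). Full-length TFE3 gave -0.43 ± 0.12 (adjusted p = 0.0498), also lost without any single library (0.078 to 0.21). TAZ-CAMTA1 was below TAZ4SA (-0.62 ± 0.12, 0.00024) and below YAP-TFE3 (-0.67 ± 0.12, 0.00076). Pcdh1 lay at 46.2, 43.0 and 41.1 CPM in EV. It lay at 86.2, 123 and 82.7 in TAZ4SA, at 121, 113 and 119 in YAP5SA, at 59.7, 66.8 and 65.4 in TAZ-CAMTA1 and at 83.1, 67.3 and 68.8 in YAP-TFE3, each library above EV. The log2 fold changes were 1.16 ± 0.14 (5.3e-07), 1.44 ± 0.14 (9.5e-09), 0.56 ± 0.14 (0.0060) and 0.75 ± 0.14 (0.00059).

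Pcdh10 lay at 1.604, 1.96 and 3.54 CPM in EV and rose most in TAZ-CAMTA1, to 8.62, 8.20 and 8.06 (1.81 ± 0.27, adjusted p = 4.4e-05), and in YAP-TFE3, to 9.08, 5.66 and 5.05 (1.47 ± 0.27, 0.00055). In TAZ4SA (0.95 ± 0.28, 0.0060) and YAP5SA (0.81 ± 0.28, 0.014) libraries overlapped those of EV. The TAZ4SA call was lost with the 2 groups fitted alone (0.074), and the YAP5SA call was lost without EV replicate 1 (0.088) or 2 (0.057) or YAP5SA replicate 1 (0.059) or 2 (0.054). Pcdh9 lay at 0.507, 1.48 and 0.575 CPM in EV, at 8.04, 7.27 and 13.0 in TAZ4SA (3.49 ± 0.38, 1.3e-07) and at 4.11, 2.94 and 3.55 in YAP5SA (2.06 ± 0.39, 7.6e-05). It was lower in TAZ-CAMTA1 than in TAZ4SA by -3.86 ± 0.39 (8.7e-08). Pcdh17 had 8, 11 and 5 reads in EV and 25, 36 and 20 in YAP-TFE3 (1.61 ± 0.39, 0.0058), and TAZ4SA exceeded YAP5SA by 1.45 ± 0.49 (0.020), the latter lost without TAZ4SA replicate 3 (0.088) or YAP5SA replicate 3 (0.076).

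All 21 clustered protocadherin rows were lower than EV in both TAZ4SA and YAP5SA (26.4% and 34.9% of all genes were called lower). Of these, 19 are beta protocadherins (Pcdhb), which lie on chromosome 18 of mm10 between 37294812 and 37524479. Their log2 fold changes ran from -0.95 to -3.70 in TAZ4SA, with a median of -2.22, and from -1.45 to -4.03 in YAP5SA, with a median of -2.97. With any single library left out, the lower calls were 18 or 19 in TAZ4SA and 19 in YAP5SA. In TAZ-CAMTA1 9 of 19 were called lower (8.98% of all genes) with a median of -0.65. That count was 3 without TAZ-CAMTA1 replicate 2 and 4 without its replicate 3 or EV replicate 3. In YAP-TFE3 3 were called lower (4.74% of all genes), Pcdhb3, Pcdhb9 and Pcdhb20, and 1 higher (10.6%), Pcdhb15, with a median of -0.37. Pcdhb3 (0.036) was not called by DESeq2 (0.073) and was lost without any of 5 libraries (adjusted p of 0.052 to 0.15, YAP-TFE3 replicate 3 being the exception), Pcdhb20 (0.039) without any of 4 (0.11 to 0.17, replicate 2 of either group being the exception) and Pcdhb15 (0.046) without any of the 6 (0.064 to 0.19), while Pcdhb9 was not lost without any. In the direct comparisons 18 of 19 were higher in TAZ-CAMTA1 than in TAZ4SA (26.6% of all genes) and all 19 were higher in YAP-TFE3 than in YAP5SA (36.4%). Summed over the 19 genes, EV libraries held 146, 138 and 146 CPM, TAZ4SA 33.9, 26.8 and 36.4, and YAP5SA 22.8, 21.4 and 21.9, which is 22.6% and 15.4% of EV on average. TAZ-CAMTA1 held 112, 80.6 and 98.1 CPM and YAP-TFE3 123, 130 and 129, or 67.7% and 88.8% of EV.

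Pcdhb16, the highest of them, lay at 22.1, 23.9 and 21.6 CPM in EV, at 5.66, 2.77 and 7.04 in TAZ4SA and at 3.39, 2.36 and 2.85 in YAP5SA (-2.09 ± 0.22, adjusted p = 5.1e-08, and -2.97 ± 0.23, 2.3e-10). TAZ-CAMTA1 differed from EV by -0.50 ± 0.20 (adjusted p = 0.078), and YAP-TFE3, at 24.4, 23.7 and 21.5 CPM, overlapped it. Pcdhb9 fell most in TAZ4SA, from 8.70, 9.31 and 10.1 CPM to 0.744, 0.450 and 0.880 (-3.70 ± 0.25, 1.1e-10), and was lower than EV in both fusions (-1.15 ± 0.20, 0.00017, and -1.06 ± 0.20, 0.00053). Pcdhb21 fell most in YAP5SA, from 7.30, 8.74 and 7.83 CPM to 0.411, 0.638 and 0.380 (-4.03 ± 0.25, 1.5e-11). Pcdhb12 held 26, 19 and 14 reads in EV and 2, 1 and 0 in YAP5SA, a ratio of 16.3 (counting interval 5.31 to 81.2). Pcdhb5 was the clustered row called in TFE3 (18.9, 14.0 and 17.1 CPM in EV and 9.52, 12.4 and 10.7 in TFE3, -0.62 ± 0.16, 0.037), and this call was lost without any of 5 of the 6 libraries (adjusted p of 0.059 to 0.18, EV replicate 2 being the exception).

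**Figure D5:**
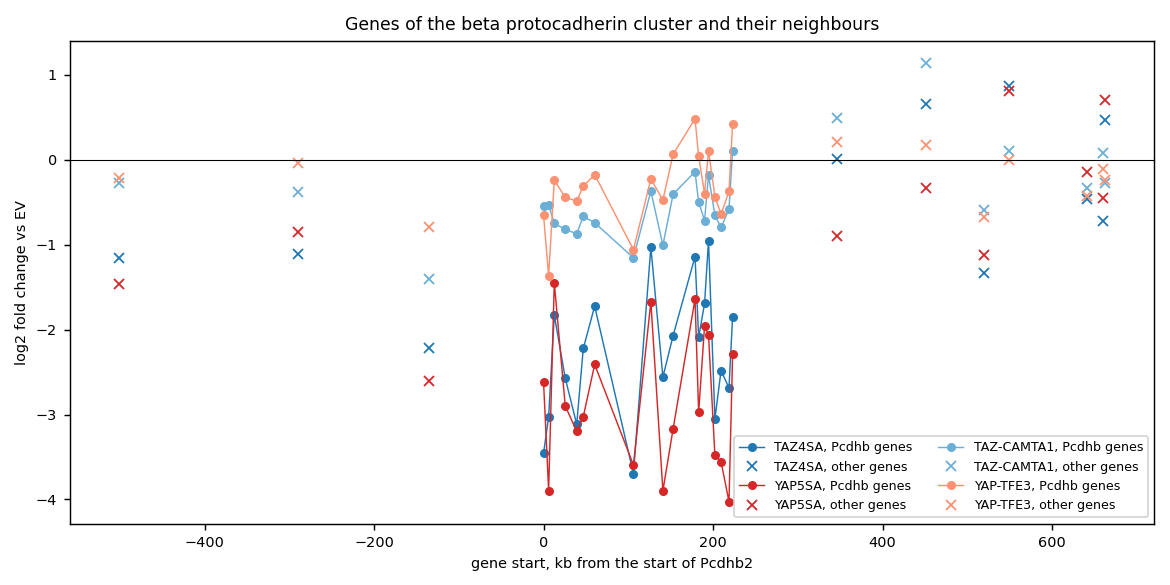
Log2 fold change against EV (vertical axis) of the 19 Pcdhb genes (joined circles) and of the other tested genes within 500 kb (crosses, which include the alpha and gamma protocadherin rows) by distance of the gene start from that of Pcdhb2 in kb (horizontal axis), for 4 groups. All circles of TAZ4SA and YAP5SA lie at -0.95 or lower, and the crosses to the right of the cluster spread to both sides of 0. The crosses to its left (Zmat2, the alpha row and Gm10544) lie between -0.85 and -2.61 in TAZ4SA and YAP5SA.

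The fall was not shared by every neighbour. Of 8 tested genes within 500 kb that are not members, 2 were higher, 3 lower and 3 not called in TAZ4SA. The same numbers held in YAP5SA. Of all genes, 31.1% were called higher and 26.4% lower in TAZ4SA, and 36.3% and 34.9% in YAP5SA, so these few neighbours lie near those shares. Diaph1, a formin that builds actin filaments, rose by 0.87 and 0.82, and Taf7, which lies between the beta and gamma arrays, was at 0.01 in TAZ4SA (adjusted p = 0.98) and fell by 0.89 in YAP5SA. Zmat2, before the alpha array, fell by 1.15 and 1.46. Gm10544, on the minus strand within the alpha array, was at -2.21 in TAZ4SA (adjusted p = 0.0037) and -2.61 in YAP5SA (0.0010). The beta genes share stretches of sequence, but 91.0% to 99.9% of the 75-base stretches of each occurred in no other gene of the GENCODE M21 annotation, the lowest value being that of Pcdhb21, which also shares exon sequence with Pcdhb22.

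The alpha and gamma arrays had 1 row each, since 35 of 102 genes of the family in GENCODE M21 have no row in these tables, 13 of them alpha, 21 gamma and 1 other. The alpha row (named Pcdha11) and the gamma row (named Pcdhgc4) have 42.4% and 63.4% of their 75-base stretches in no other gene, and whether they hold reads of the rest of their array cannot be told apart. The gamma row was the highest of all members, at 1327, 1300 and 1418 CPM in EV. It lay at 552, 618 and 435 CPM in TAZ4SA and at 661, 583 and 613 in YAP5SA (-1.33 ± 0.14, adjusted p = 8.0e-08, and -1.12 ± 0.14, 3.2e-07). It was lower with both fusions as well, at 947, 883 and 858 CPM (-0.59 ± 0.14, 0.0038) and 769, 789 and 982 (-0.67 ± 0.14, 0.0016). The alpha row fell by 1.11 in TAZ4SA and by 0.85 in YAP5SA and was not called in either fusion (adjusted p = 0.14 and 0.93).

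Cells grown below confluence differed from confluent cells in 23 of 46 members, 7 higher and 16 lower (22.1% of all genes were called, 12.5% higher and 9.59% lower). The 7 include Fat2, which had passed the limit only through EVsub. The lower calls made up 34.8% of the members. Of the 16, 11 were clustered protocadherins, 9 of them beta genes (3 without EV replicate 3 or EVsub replicate 2 and 4 without EV replicate 1 or EVsub replicate 1). The summed level of the 19 beta genes in EVsub was 100, 76.1 and 110 CPM, or 66.8% of EV. All 7 non-clustered protocadherins were called, 4 higher (Pcdh1, Pcdh9, Pcdh17 and Pcdh19) and 3 lower (Pcdh7, Pcdh10 and Pcdh18). Pcdh7 fell by 1.05 (-1.05 ± 0.19, adjusted p = 0.00058), to 9.98, 14.5 and 14.4 CPM, and Cdh17 fell by 1.12 (-1.12 ± 0.21, 0.00071). Pcdh17 rose from 8, 11 and 5 reads to 29, 19 and 25 (1.48 ± 0.39, 0.0092), a call lost without EV replicate 3 (0.062) or EVsub replicate 1 (0.053). Pcdhb3 fell from 12, 14 and 15 reads to 2, 5 and 7 (-1.66 ± 0.45, 0.011), lost without EVsub replicate 1 (0.059), and Pcdhb2 from 23, 18 and 28 to 8, 13 and 12 (-1.19 ± 0.37, 0.025), lost without EV replicate 1 (0.053) or 3 (0.11) or EVsub replicate 1 (0.092) or 2 (0.067). The count was 10 without EVsub replicate 2, 11 without EV replicate 3, 14 without EVsub replicate 1 and 15 without EV replicate 1. Pcdh10 and Pcdh19 moved in opposite directions in EVsub and in TAZ4SA and YAP5SA, each being called in all 3, although the EVsub calls were lost for Pcdh10 without EV replicate 3 (0.13) or EVsub replicate 2 (0.072) and for Pcdh19 without EV replicate 1 (0.11) or 3 (0.069) or EVsub replicate 2 (0.13). Single libraries also decided the calls of Pcdh1 (0.067 without EV replicate 3, 0.15 without EVsub replicate 2), Pcdh9 (0.14 without EV replicate 1 or 3, 0.19 without EVsub replicate 1), Pcdh18 (0.050 to 0.19 without any library but EVsub replicate 3) and Cdh11 (0.052 without EV replicate 2, 0.073 without EVsub replicate 2).

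The fusions differed from each other in 8 members (11.6% of all genes, 5.32% higher and 6.32% lower in TAZ-CAMTA1), 4 higher and 4 lower in TAZ-CAMTA1. Cdh5, Cdh26, Fat2 and Pcdh19 were higher and Cdh23, Pcdh7, Pcdh18 and Pcdhb15 were lower. Cdh5 had passed the limit only through TAZ-CAMTA1. The count was 5 without TAZ-CAMTA1 replicate 2. The call of Pcdh19 was lost without TAZ-CAMTA1 replicate 3 (0.058) or YAP-TFE3 replicate 3 (0.072) and that of Pcdhb15 without TAZ-CAMTA1 replicate 2 (0.11) or YAP-TFE3 replicate 1 (0.051). Each fusion was set against its full-length protein at the same confluence. TAZ-CAMTA1 against TAZ4SA called 37 members, 29 higher and 8 lower (54.7% of all genes, 26.6% higher and 28.1% lower). YAP-TFE3 against YAP5SA called 39, 32 higher and 7 lower (70.9% of all genes, 36.4% higher and 34.5% lower). TAZ4SA against YAP5SA called 15, 12 higher and 3 lower (42.4% of all genes, 22.8% higher and 19.6% lower), and the 12 included 7 of the 19 Pcdhb genes, or 3 without TAZ4SA replicate 3.

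The genes of proteins that cadherins work with moved both ways, as did all genes. Of all genes, 31.1% were called higher and 26.4% lower in TAZ4SA, and 36.3% and 34.9% in YAP5SA. The shares were 12.5% and 8.98% in TAZ-CAMTA1 and 10.6% and 4.74% in YAP-TFE3. Of 10 tested catenins and plakophilins, 5 rose and 3 fell in TAZ4SA, 5 rose and 1 fell in YAP5SA, 5 rose and 1 fell in TAZ-CAMTA1, and 2 rose and 2 fell in YAP-TFE3. Beta-catenin (Ctnnb1), which links cadherins to alpha-catenin and carries Wnt signals, fell in each, by 1.73, 1.88, 0.81 and 0.44 on the log2 scale. Pkp2, a plakophilin of desmosomes, rose in each, by 4.42, 4.97, 4.67 and 2.32, and Arvcf, a catenin of the p120 family, by 1.28, 2.03, 1.20 and 0.71. The 9 desmosomal cadherins (Dsg and Dsc) that plakophilins bind had at most 1 read in any library. Of 4 tested nectins and afadin, 3 rose in TAZ4SA, 3 rose and 1 fell in YAP5SA, and 2 rose in each fusion, with Nectin2 at 0.81, 1.74, 1.20 and 0.38.

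Of 11 planar polarity partners, 3 rose and 7 fell in TAZ4SA (31.1% and 26.4% of all genes), and 4 rose and 6 fell in YAP5SA (36.3% and 34.9%). The counts were 2 and 3 in TAZ-CAMTA1 (12.5% and 8.98% of all genes) and 3 and 3 in YAP-TFE3 (10.6% and 4.74%). The same shares stand beside the counts of the lists that follow. Fjx1, the kinase homologue that tunes Fat and Dchs binding, fell by 2.56 in TAZ4SA, 3.02 in YAP5SA and 1.00 in YAP-TFE3, and Vangl1 fell by 1.72 and 1.34 in the full-length groups. Among 6 repressors of cadherin genes, 5 fell in TAZ4SA and 5 in YAP5SA, while 1 rose and 1 fell in TAZ-CAMTA1 and 1 fell in YAP-TFE3. Snai2, a repressor of Cdh1 in epithelia, fell by 1.59, 2.60, 1.09 and 0.56 in the 4 groups and rose by 0.75 in TFE3. Of 9 sheddases and gamma-secretase subunits, which cut cadherins at the membrane, 3 rose and 3 fell in TAZ4SA, 4 rose and 3 fell in YAP5SA, 2 rose in TAZ-CAMTA1 and 3 rose in YAP-TFE3. Adam10, the main sheddase of Cdh1 and Cdh2, fell by 0.99 in TAZ4SA and 1.67 in YAP5SA.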

How the data were processed

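RNA of 24 libraries was sequenced by the authors as stranded poly(A) paired-end reads, aligned to mm10 and counted per gene. The deposited values are raw read counts per gene, one file per library, with totals of 16471181 to 30132586. The methods name Hisat2 for alignment and Salmon with tximport for counts per gene. Which of these the deposited whole-number tables come from, and the strand setting, are not given in the sources used here. The annotation of GENCODE M21 gave symbols, exon lengths and positions.

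From the counts, genes with a mean of at least 5 were kept, scaled by TMM and fitted together over all 24 libraries with edgeR 4.0.16 (limma 3.58.1, R 4.3.3) in 11 comparisons, using the quasi-likelihood test with Benjamini-Hochberg adjustment over all 14361 genes. The pipeline was tested on simulated data. Replicates are separately transduced lines, so p-values measure the spread among such lines. CPM use TMM-scaled library sizes, ratios against 3 reads or fewer carry 95% exact intervals for counting error only, and a group at 0 was set to 3 reads over the group. Alternatives were DESeq2 1.42.0 (test and size factors), no filter, at least 10 counts in every library, a limit of 1 on the size of the log2 fold change, the compared groups alone, a replicate block and each library left out. Same-numbered libraries of different groups were not taken as pairs, because in no comparison did all 3 correlations of their deviations exceed 0.1. The highest were those of CAMTA1 with EVsub, at 0.25 for replicate 1 and 0.41 for replicate 3, against -0.0025 for replicate 2.

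Members and gene lists were chosen with earlier results of these data known. Named with full values were the 2 highest members of each role, the 4 largest called changes without overlap in each comparison, and Cdh1, Cdh2, Cdh11, Cdh13, Fat4 and Dchs1. Cdh3, Pcdha11, Pcdhb15 and Pcdhb20 were added after their values were seen. Partner genes are named by list, and their values were not tested under the alternatives. Promoter windows came from RefSeq, and windows on chromosome 18 are not reported here. A further list of marker genes is not reported here. Figures were drawn with Python 3.11.15 and matplotlib 3.10.9.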

Additional observations from a re-analysis of the deposited data

Results flagged for a closer look

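Between a fusion and its full-length protein, 3 members were called in opposite directions for TAZ. The share of all genes called in opposite directions was not counted, here or for the pairs below, so these counts stand without it. Against EV, 57.5% of all genes were called in TAZ4SA, 71.2% in YAP5SA, 21.5% in TAZ-CAMTA1 and 15.3% in YAP-TFE3. Cdh1 was higher in TAZ-CAMTA1 than in TAZ4SA by 4.02 on the log2 scale (a count of 2 reads stands on the TAZ4SA side), Cdh17 by 2.09 and Pcdh19 by 2.78.

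For YAP, 2 members were called in opposite directions. YAP-TFE3 exceeded YAP5SA by 3.997 for Cdh1 and by 2.12 for Pcdhb15, whose call against EV in YAP-TFE3 was lost without any single library.

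Cdh17 was the member called in opposite directions by the 2 full-length proteins, with a log2 fold change of TAZ4SA over YAP5SA of -3.19. All 6 differences were tested directly in the edgeR quasi-likelihood fit. They were picked from opposite calls in the same libraries, so the direct tests add no separate support. For Cdh1, the calls against EV in TAZ4SA, TAZ-CAMTA1 and YAP-TFE3 were each lost without some single library.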

How the results depend on the processing

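The 187 called values of named members changed sign under none of the alternatives. They remained called in 990 refits with other settings and in 958 with a library left out, and lost the call in 61 and 164. Of the 61, 30 were with the compared groups alone, 15 with no filter, 6 with the replicate block, 4 with DESeq2, 3 with its size factors and 3 with at least 10 counts in every library. The 10 printed values that were not called gained a call in 6 and 4 refits, and 1 changed sign, that of Pcdha11 in YAP-TFE3 (-0.12 to 0.019 with a library left out, the highest without EV replicate 1). Of 166 further values of named members that were not called, 54 changed sign in some refit. Counts of members called moved as follows.

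With at least 10 counts in every library, 24 members were tested, so counts fell by construction, to 22 in TAZ4SA, 22 in YAP5SA, 12 in TAZ-CAMTA1, 7 in YAP-TFE3, 3 in TFE3, 23 in TAZ-CAMTA1 against TAZ4SA and 21 in YAP-TFE3 against YAP5SA. A fold limit of 1 on the log2 scale left 9 in TAZ-CAMTA1, 8 in YAP-TFE3, 1 in TFE3, 0 in CAMTA1, 10 in EVsub, 24 in TAZ-CAMTA1 against TAZ4SA and 4 between the fusions. Fits of the compared groups alone gave 8 in TFE3, 0 in CAMTA1, 10 in EVsub and 6 in TAZ4SA against YAP5SA. CAMTA1 called 3 with no filter and 4 with DESeq2. Except where the filter or the fold limit acts by construction, the cause was not tested.

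With the replicate number as a block, TFE3 called 3 members in place of 5, and no other count moved by over 1.5 times. By the rule on the correlations given above, the numbers were not taken to pair the libraries.

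Leaving out 1 library gave 34 to 38 calls in TAZ4SA, 35 to 38 in YAP5SA, 13 to 21 in TAZ-CAMTA1, 8 to 16 in YAP-TFE3, 2 to 3 in TFE3, 0 to 3 in CAMTA1, 10 to 26 in EVsub, 32 to 36 in TAZ-CAMTA1 against TAZ4SA, 37 to 39 in YAP-TFE3 against YAP5SA, 5 to 9 between the fusions and 11 to 14 in TAZ4SA against YAP5SA. Depth limits Cdh1, Cdh5, Fat2 and the lowest beta genes, where single reads set the ratios.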
